A study of Mus musculus with 6 samples.

Results

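Heat shock proteins and their DnaJ cochaperones were followed across brain cell classes 24 h after experimental stroke. The members were the genes whose symbol starts with Hspa, Hspb, Hspd, Hspe, Hsph, Hsp90 or Dnaj, without pseudogenes and provisional models, which gave 74 of the 27998 genes in the gene table. They comprise 11 HSP70 genes, 3 HSP110 genes, 3 HSP90 genes, 8 small heat shock protein genes, the mitochondrial chaperonin pair, 2 genes of HSP-binding proteins, and 4 DnaJ A, 13 DnaJ B and 28 DnaJ C genes. Hspb11 is counted among the small heat shock protein genes by its symbol alone. Single brain cells came from C57BL/6 mice aged 6 to 8 weeks, taken 24 h after middle cerebral artery occlusion (MCAO, which blocks a main artery of the forebrain) or after a sham operation. Each group had 3 droplet libraries. In both groups papain digestion took 30 min at 37 °C, and the suspension was cleared of myelin on 30% Percoll, so the cells of every library, sham included, had been through warm digestion before their RNA was captured. The labels do not give the sex, the part of the brain, the length of the occlusion or whether a library is 1 animal or a pool, so the p-values rest on library-to-library spread, part of which may be technical.

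HSP70 proteins bind unfolded stretches of other proteins and release them in a cycle driven by ATP. DnaJ proteins (also called HSP40) deliver the client and switch on the ATPase of HSP70, HSP110 proteins exchange its nucleotide, HSP90 takes over partly folded clients such as kinases and receptors, and small heat shock proteins hold unfolded proteins without ATP. Separate sets serve the cytosol, the endoplasmic reticulum (ER) and mitochondria. Cytosolic members such as Hspa1a, Hspa1b, Hsph1 and Dnajb1 are textbook targets of heat shock factor 1, and ER members such as Hspa5, Hsp90b1, Dnajb11 and Dnajc3 are textbook targets of the unfolded protein response.

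Libraries held 25135690 to 42848023 UMIs (unique molecular identifiers, each standing for 1 captured RNA), and after filters 52658 of 58528 barcodes were kept, with medians of 2325 to 2398 UMIs per kept cell in sham and 2762 to 3397 in MCAO. Any pair of libraries shared 61 to 149 barcodes, 0.822% to 1.66% of the smaller library. Cells fell into 29 clusters, named by marker genes, and 13 classes had at least 20 cells in every library. Each class name stands for cells like that type. Leaving the members and the genes of the pathway list out of the clustering left 99.4% of kept cells with the same class name. Microglia (5931 sham and 5975 MCAO cells), endothelial cells (13288 and 11432) and astrocytes (852 and 1469) carried the main comparisons. Different clusters held microglia in the 2 groups, since cluster 3 held 95.1% of sham and 2.08% of MCAO microglia, cluster 4 held 4.64% and 60.5%, and cluster 10 held 0.219% and 37.4%. Endothelial clusters 0 and 2 likewise held mostly sham cells and clusters 1 and 5 mostly MCAO cells. The 12 microglia markers summed to 33918 to 35408 CPM (counts per 1000000 UMIs of the class) in sham and 14364 to 15087 CPM in MCAO microglia, and none was at 0. In microglia, the 12 endothelial markers stood at 4.58% to 6.02% of their endothelial level in sham and 3.89% to 5.13% in MCAO, and the 10 markers of monocyte-derived cells summed to 90.5 to 112 CPM in sham and 208 to 263 CPM in MCAO.

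Promoter sequences are shown for members of the ER, cytosolic and mitochondrial sets whose levels are described below, with the motif named for each in capitals. The upstream 250 bases of each RefSeq gene start (build GRCm38.p6) were searched on both strands for the ER stress element (CCAAT and CCACG with any 9 bases between them, through which the unfolded protein response acts) and for heat shock elements of 2 units (GAANNTTC or TTCNNGAA) or 3 units (GAA, TTC and GAA, or TTC, GAA and TTC, with NN between units), the longer forms always containing a shorter one. Of the 74 members, 60 had an entry. The ER stress element was found in 3 of these 60, Hspa5, Hsp90b1 and Dnajc3, and in 0.13% of all 27025 gene symbols with an entry. In the lines below it lies 65 to 47 bases before the start of Hspa5 and 105 to 87 bases before that of Dnajc3, and Hsp90b1 has 2 copies in opposite orientation.
Hspa5 (chr2:34771840-34772089, plus strand, 5′ to 3′): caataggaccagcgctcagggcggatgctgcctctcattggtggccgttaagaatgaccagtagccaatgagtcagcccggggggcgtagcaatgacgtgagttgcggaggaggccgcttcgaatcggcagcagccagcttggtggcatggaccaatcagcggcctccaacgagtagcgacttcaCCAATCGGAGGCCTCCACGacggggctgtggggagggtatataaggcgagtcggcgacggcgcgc
Hsp90b1 (chr10:86705445-86705694, minus strand, 5′ to 3′): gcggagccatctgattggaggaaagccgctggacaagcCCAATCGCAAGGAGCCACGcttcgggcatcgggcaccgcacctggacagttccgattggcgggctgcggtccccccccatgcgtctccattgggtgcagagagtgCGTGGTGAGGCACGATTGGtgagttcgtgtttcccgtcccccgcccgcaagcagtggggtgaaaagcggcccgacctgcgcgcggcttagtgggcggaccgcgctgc
Dnajc3 (chr14:118937682-118937931, plus strand, 5′ to 3′): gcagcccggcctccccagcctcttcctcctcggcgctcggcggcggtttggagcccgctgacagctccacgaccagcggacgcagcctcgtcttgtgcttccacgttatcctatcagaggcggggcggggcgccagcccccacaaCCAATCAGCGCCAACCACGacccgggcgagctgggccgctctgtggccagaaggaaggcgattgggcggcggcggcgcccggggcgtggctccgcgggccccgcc
A 2-unit heat shock element was found in 14 of the 60 members and in 14.5% of all symbols, and a 3-unit element in 3 members (Dnajb6, Hspd1 and Hspe1) and 0.514% of symbols. Hspd1 and Hspe1, which encode the subunits of the mitochondrial chaperonin, lie head to head on chromosome 1 and share the stretch that holds it. For Hspe1 only 30 of the 250 bases are printed, and the capitals cover 2 overlapping matches of the 3-unit element. Hspa1a and Hspa1b, the inducible cytosolic HSP70 pair on chromosome 17, have nearly identical upstream sequence, with 3 differing bases among the 250 (98.8% identical). Hsph1 encodes the cytosolic HSP110 that recharges HSP70.
Hspa1a (chr17:34972157-34972406, minus strand, 5′ to 3′): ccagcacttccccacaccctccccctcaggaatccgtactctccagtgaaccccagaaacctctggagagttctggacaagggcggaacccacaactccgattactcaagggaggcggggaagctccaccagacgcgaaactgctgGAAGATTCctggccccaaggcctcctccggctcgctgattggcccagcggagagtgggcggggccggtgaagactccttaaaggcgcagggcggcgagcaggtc
Hspa1b (chr17:34959239-34959488, minus strand, 5′ to 3′): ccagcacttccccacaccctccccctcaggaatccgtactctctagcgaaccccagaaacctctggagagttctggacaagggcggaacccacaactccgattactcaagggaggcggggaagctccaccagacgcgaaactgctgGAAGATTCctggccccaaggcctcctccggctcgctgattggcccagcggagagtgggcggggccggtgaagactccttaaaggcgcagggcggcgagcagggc
Hsph1 (chr5:149636337-149636586, minus strand, 5′ to 3′): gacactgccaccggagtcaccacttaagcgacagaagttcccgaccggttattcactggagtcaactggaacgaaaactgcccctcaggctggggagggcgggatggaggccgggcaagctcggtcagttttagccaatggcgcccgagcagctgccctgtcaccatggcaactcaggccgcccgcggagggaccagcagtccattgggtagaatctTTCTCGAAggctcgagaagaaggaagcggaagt
Hspe1 (chr1:55088051-55088080, plus strand, 5′ to 3′): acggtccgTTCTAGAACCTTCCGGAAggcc
Each match is a description of these letters only, and binding was not measured. Dnajb1, whose changes stand beside those of the pair below, had no 2-unit element in the bases searched.

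In each class the UMIs were summed per library, all genes passing a filter on low counts were tested with edgeR's quasi-likelihood test, and a change is the log2 ratio of MCAO over sham ± its standard error, called where the Benjamini-Hochberg adjusted p was below 0.05. In microglia, 64 members passed the filter, 35 were called higher and 14 lower, where 30.0% and 31.9% of all genes tested were called. In endothelial cells the counts were 24 higher and 9 lower of 63, against 24.0% and 22.3% of all genes. In astrocytes they were 15 higher and 1 lower of 56, against 9.68% and 7.46%. The share of members called higher was thus above that of all genes in the 3 classes, while the share called lower was below it. The median member changed by 0.30 in microglia, 0.10 in endothelial cells and 0.18 in astrocytes, and the median of all genes tested by -0.04, -0.02 and -0.01. The members' summed level rose without overlap of libraries in each of them, from 8188 to 8220 CPM in sham to 14257 to 15304 in MCAO microglia, from 9447 to 9647 to 12684 to 12736 in endothelial cells, and from 4597 to 4714 to 6301 to 6522 in astrocytes. Scaling by library totals in place of edgeR's TMM factors shifted the median of all genes by -0.14 in microglia, -0.04 in endothelial cells and -0.12 in astrocytes, and the calls became 30 and 16, 23 and 12, and 14 and 4. With DESeq2 the endothelial calls were 21 higher and 4 lower.

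With the members left out of the clustering, which enlarged the class, the astrocyte counts were 20 higher and 2 lower, and the share of all genes was not counted there. The families moved unevenly. All 3 HSP90 genes and Hspd1 were called higher in microglia, endothelial cells and astrocytes. HSP70 genes were called higher in 9 of 10 tested in microglia, 6 of 9 in endothelial cells and 4 of 9 in astrocytes. The DnaJ C family had 10 higher and 8 lower of 24 tested in microglia, 6 and 4 of 24 in endothelial cells, and 1 and 1 of 21 in astrocytes. Of all genes tested, 30.0% were higher and 31.9% lower in microglia, 24.0% and 22.3% in endothelial cells, and 9.68% and 7.46% in astrocytes. Calls in both directions were thus no trait of the DnaJ C family. Over all 13 classes, 18 members were tested in every class, 28 were called higher in at least 1 class and lower in none, 19 lower and never higher, 11 in both directions, 9 were tested but never called, and 7 passed the filter in no class. The matching shares of all genes were not counted, so these numbers describe the members without a comparison.

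**Figure D1:**
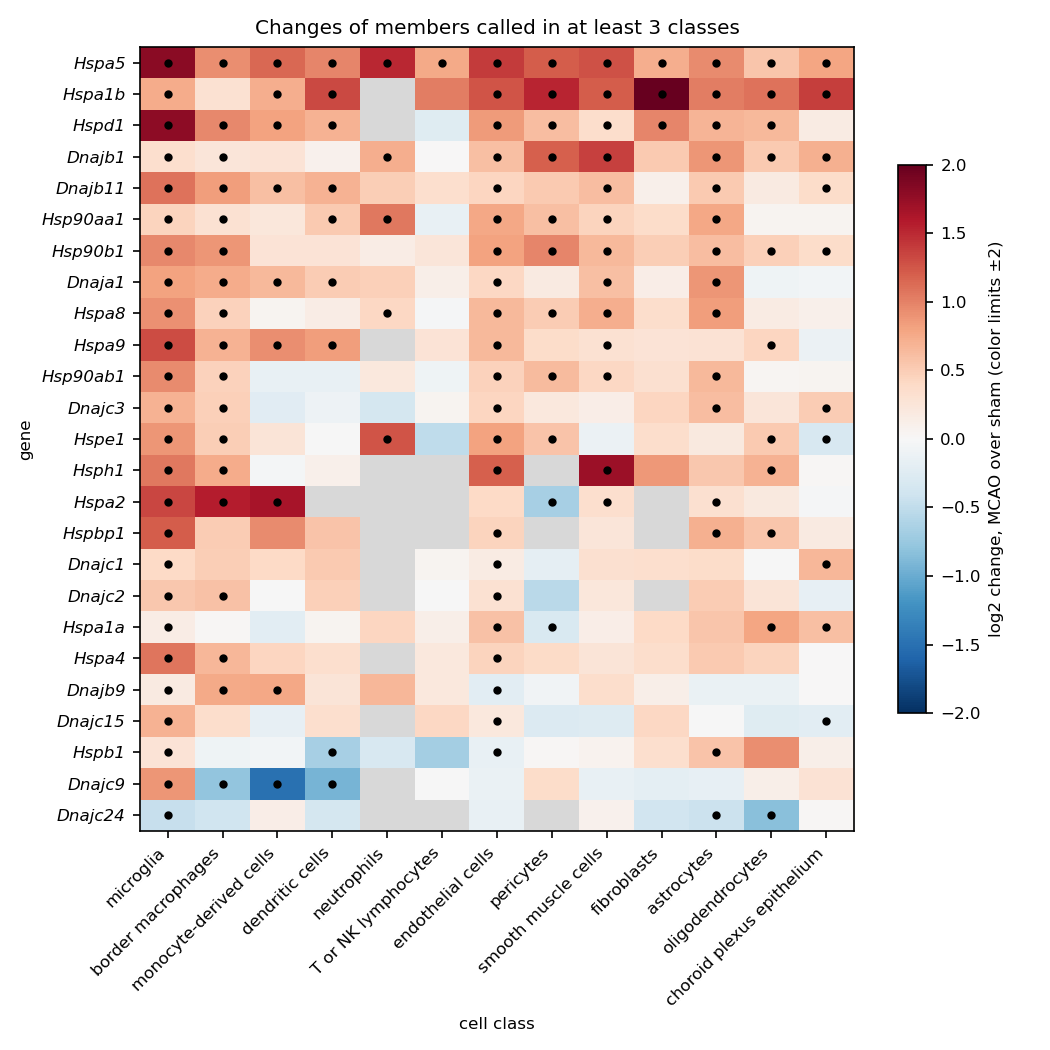
Log2 change of MCAO over sham (color, limits ±2) for the 25 members called in at least 3 classes, by cell class. Black dots mark calls at an adjusted p below 0.05 and gray cells mark genes that did not pass the filter on low counts. The row of Hspa5 is called higher in all 13 classes, and Dnajc9 is higher in microglia and lower in 3 other immune classes.

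Hspa5 encodes BiP, the HSP70 of the ER and the sensor partner of the unfolded protein response (chr2:34771970-34777547, plus strand on mm10). In microglia it measured 943, 945 and 914 CPM in the sham libraries and 3192, 3126 and 3513 CPM in the MCAO libraries, a 3.51-fold difference (1.81 ± 0.05, adjusted p = 2.14e-16). In endothelial cells it measured 269.9, 264 and 267 CPM in the sham libraries and 736, 700.2 and 672 CPM in the MCAO libraries (1.40 ± 0.04, adjusted p = 5.55e-15). In astrocytes it measured 301, 315 and 265 CPM in the sham libraries and 556, 599.7 and 529.6 CPM in the MCAO libraries (0.94 ± 0.07, adjusted p = 4.76e-15). Every MCAO library lay above every sham library in the 3 classes. Hspa5 was called higher in 13 of 13 classes, with changes from 0.56 in oligodendrocytes to 1.81 in microglia, and 0.597% of the 1843 genes tested in every class (11 genes) were called higher in all of them. These genes included C5ar1, a leading gene of microglial cluster 4, and the part of free or foreign RNA in the Hspa5 values was not tested. In fibroblasts the call was lost without sham library 1 (adjusted p = 0.0532) or sham library 2 (adjusted p = 0.0551).

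Partners of BiP in the ER rose beside it. Hsp90b1 encodes GRP94, the HSP90 of the ER (chr10:86690209-86705509, minus strand). In microglia its levels were 518, 508 and 512 CPM in the sham libraries and 997, 956 and 1042 CPM in the MCAO libraries (0.96 ± 0.05, adjusted p = 1.02e-12). In endothelial cells the mean went from 240.2 to 419 CPM (0.80 ± 0.04, adjusted p = 4.08e-12) and in astrocytes from 173 to 266 CPM (0.61 ± 0.09, adjusted p = 2.60e-07). Dnajb11, a DnaJ protein that feeds clients to BiP, was called higher in 8 of 13 classes. It measured 153, 149 and 148 CPM in the sham libraries and 324, 312 and 322 CPM in the MCAO libraries in microglia (1.09 ± 0.05, adjusted p = 1.71e-13), and its change was 0.43 ± 0.04 in endothelial cells and 0.53 ± 0.12 in astrocytes. Dnajc3, which encodes P58IPK, an inhibitor of the translation-blocking kinase PERK and a cochaperone of BiP, rose by 0.69 ± 0.05, 0.43 ± 0.05 and 0.61 ± 0.11 in the 3 classes. The promoters of Hspa5, Hsp90b1 and Dnajc3 are the 3 printed above with the ER stress element, and all 3 genes were called higher in microglia, endothelial cells and astrocytes. Members without that element in the bases searched, such as Dnaja1 and Hspd1, were called higher in these classes too, and its part was not tested.

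Dnajb9, an ER DnaJ protein known as ERdj4 that represses the sensor IRE1, did not move as one with them. It was called higher in microglia (137 ± 5.90 CPM in sham and 155 ± 8.93 CPM in MCAO, 0.18 ± 0.06, adjusted p = 0.0096) and lower in endothelial cells (130.2 ± 8.45 CPM in sham and 112 ± 11.2 CPM in MCAO, -0.22 ± 0.07, adjusted p = 0.0287). In astrocytes, the class with its highest level, it measured 195, 211 and 199.8 CPM in sham and 178, 187 and 190.4 CPM in MCAO (-0.13 ± 0.09, adjusted p = 0.372). Both calls were lost in part of the reruns, the microglial one without sham library 2 (adjusted p = 0.0664), without MCAO library 2 (adjusted p = 0.0559) and without TMM scaling, where the change was 0.04. The endothelial one was lost without sham library 2 (adjusted p = 0.0803) or 3 (adjusted p = 0.0935) and with the replicate block (adjusted p = 0.0717). It was also called higher in border macrophages (79.8 ± 12.3 CPM in sham and 135 ± 22.2 CPM in MCAO, 0.76 ± 0.15, adjusted p = 7.73e-05) and monocyte-derived cells (0.77 ± 0.24, adjusted p = 0.018).

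**Figure D2:**
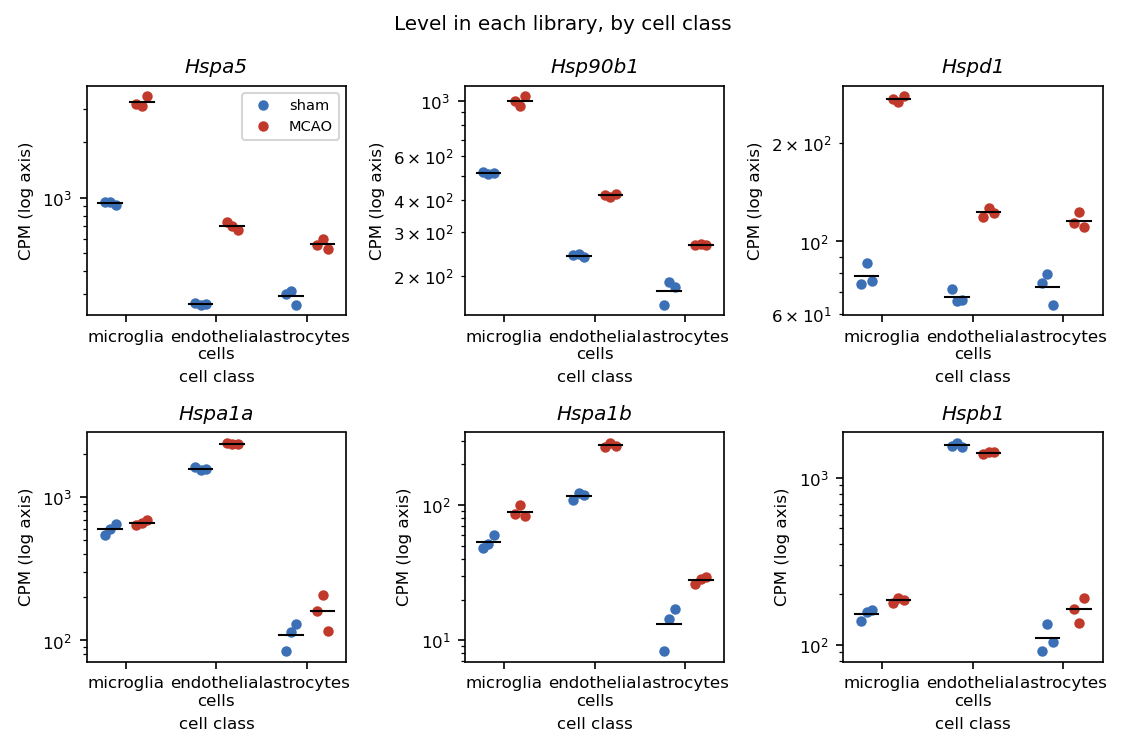
Level in CPM on log axes for Hspa5, Hsp90b1, Hspd1, Hspa1a, Hspa1b and Hspb1 in each library (points) of 3 cell classes, with black lines at the group means (n = 3 libraries). Sham and MCAO points of Hspa5, Hsp90b1 and Hspd1 are apart in all 3 classes, while those of Hspa1a overlap in microglia and astrocytes.

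Hspa1a (chr17:34969190-34972156, minus strand) and Hspa1b (chr17:34956436-34959238, minus strand) encode nearly the same stress-inducible cytosolic HSP70. Reads that fit both copies may be dropped or given to 1 of them, so the split between the genes is uncertain and the pair is also given as a sum. In endothelial cells Hspa1a measured 1620.05, 1564 and 1574 CPM in the sham libraries and 2399, 2343 and 2369 CPM in the MCAO libraries (0.58 ± 0.04, adjusted p = 1.70e-10). Hspa1b measured 108, 122 and 119 CPM in the sham libraries and 268, 288 and 275 CPM in the MCAO libraries there (1.25 ± 0.05, adjusted p = 2.37e-13). The sum of the pair rose from 1703 ± 22.4 to 2647 ± 18.3 CPM, without overlap.

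In microglia Hspa1b rose from 53.4 to 89.3 CPM (0.74 ± 0.09, adjusted p = 6.10e-06), while Hspa1a measured 546, 602 and 653 CPM in the sham libraries and 639.5, 664 and 695 CPM in the MCAO libraries (0.15 ± 0.06, adjusted p = 0.0349). The sham and MCAO libraries of Hspa1a overlapped, and its call was lost without any 1 of 4 libraries (sham 1, sham 2, MCAO 2 or MCAO 3, adjusted p from 0.0629 to 0.086) and without TMM scaling (change 0.0031). In astrocytes Hspa1a measured 84.1, 114 and 130.2 CPM in the sham libraries and 162, 208 and 116 CPM in the MCAO libraries (0.55 ± 0.29, adjusted p = 0.314), also overlapping. Hspa1b was called higher there (1.03 ± 0.25, adjusted p = 0.00208), at a level of 9.79% to 10.7% of the endothelial one in MCAO, and its call was lost with at most 5% mitochondrial UMIs per cell (adjusted p = 0.107), while a coarser clustering (Leiden resolution 0.5) gave 1.76. The summed endothelial markers stood in astrocytes at 4.23% to 5.86% of their endothelial level in sham and 4.39% to 5.41% in MCAO, and the part of free or foreign RNA in the astrocyte values was not tested.

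Across classes Hspa1b was called higher in 10 of the 12 where it was tested and Hspa1a in 4 of 13, with 1 lower. Hspa1b's share of the pair's counts was higher on average in MCAO in 13 of 13 classes, and in 10 of them every MCAO library lay above every sham library. In pericytes the calls of the copies had opposite signs. There Hspa1a fell, from 2281, 2426 and 2936 CPM to 1825, 2245 and 2136 CPM (-0.31 ± 0.09, adjusted p = 0.0157), while Hspa1b rose from 69.3, 119 and 54.3 CPM to 183, 228 and 277 CPM (1.52 ± 0.25, adjusted p = 1.62e-05). The sum of the pair was 2629 ± 328 CPM in sham and 2298 ± 253 CPM in MCAO pericytes, with overlapping libraries. In microglia the sum was 654 ± 59.3 CPM in sham and 755 ± 27.4 CPM in MCAO, without overlap. Hspa1b's share of the pair went from 3.15% ± 1.44 to 9.94% ± 1.34 in pericytes, from 6.84% ± 0.516 to 10.5% ± 0.455 in endothelial cells and from 8.16% ± 0.307 to 11.8% ± 1.27 in microglia (mean ± SD, n = 3 libraries). The shares are ratios of counts of 2 transcripts and say nothing of their lengths or capture.

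Hspa8, the constitutive cytosolic HSP70 (HSC70), was called higher in 7 of 13 classes. It measured 1721, 1671 and 1701 CPM in the sham libraries and 3103, 3076 and 3384 CPM in the MCAO libraries in microglia (0.91 ± 0.05, adjusted p = 3.10e-12), with changes of 0.64 ± 0.03 in endothelial cells and 0.84 ± 0.06 in astrocytes. Its exchange factors of the HSP110 family rose in microglia and endothelial cells. Hsph1 went from 17.5 to 36.2 CPM in microglia (1.05 ± 0.11, adjusted p = 1.19e-07) and from 14.3 to 32.8 CPM in endothelial cells (1.20 ± 0.11, adjusted p = 1.35e-07), and measured 16.6, 15.5 and 23.5 CPM in sham and 30.8, 28.8 and 22.4 CPM in MCAO astrocytes (0.55 ± 0.23, adjusted p = 0.105). Hspa4, another HSP110, rose by 1.06 ± 0.07 in microglia and 0.45 ± 0.06 in endothelial cells, and Hspa4l, the third, was called in microglia alone of the 3 (2.87 ± 0.668 CPM in sham and 6.18 ± 1.63 CPM in MCAO, 1.09 ± 0.27, adjusted p = 0.00149). Hspbp1, an HSP70-binding protein that releases nucleotide, measured 19.3, 24.3 and 22.3 CPM in the sham libraries and 52.4, 53.1 and 47.5 CPM in the MCAO libraries in microglia (1.22 ± 0.10, adjusted p = 1.35e-09) and rose by 0.70 ± 0.21 in astrocytes, a call lost without sham library 2 (adjusted p = 0.0584) or 3 (adjusted p = 0.0879), with DESeq2 and at 5% mitochondrial UMIs.

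Dnajb1 and Dnaja1, the main DnaJ partners of cytosolic HSP70, rose in the 3 main classes. Dnajb1 measured 35.5, 42.0 and 44.3 CPM in the sham libraries and 87.8, 74.7 and 62.8 CPM in the MCAO libraries in astrocytes (0.89 ± 0.16, adjusted p = 2.51e-05). In microglia it went from 363 to 459 CPM (0.34 ± 0.05, adjusted p = 6.43e-06, and 0.19 without TMM scaling) and in endothelial cells from 148 to 224 CPM (0.60 ± 0.04, adjusted p = 7.92e-10). Dnaja1 rose by 0.89 ± 0.09 in astrocytes, 0.81 ± 0.05 in microglia and 0.42 ± 0.04 in endothelial cells. Hspa2, an HSP70 known best from the testis, rose in microglia (8.57 ± 1.28 CPM in sham and 21.6 ± 0.826 CPM in MCAO, 1.34 ± 0.14, adjusted p = 5.40e-08), but its MCAO level there was 7.53% of that in pericytes.

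The cytosolic HSP90 pair rose in the 3 main classes. Hsp90aa1, the stress-inducible form, measured 219, 221 and 205 CPM in the sham libraries and 381, 367 and 356 CPM in the MCAO libraries in endothelial cells (0.78 ± 0.04, adjusted p = 3.48e-11). Its change was 0.77 ± 0.09 in astrocytes and 0.44 ± 0.05 in microglia, and the astrocyte one was 1.38 with doublets kept and 1.35 at the coarser clustering. Hsp90ab1, the constitutive form, measured 674, 699 and 622 CPM in the sham libraries and 1229, 1245 and 1355 CPM in the MCAO libraries in microglia (0.94 ± 0.05, adjusted p = 9.22e-12). Its change was 0.65 ± 0.07 in astrocytes and 0.47 ± 0.04 in endothelial cells. No library of one group reached into the range of the other in these classes.

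Both chaperonin genes of mitochondria rose in microglia and endothelial cells. Hspd1 (chr1:55077835-55088243, minus strand) and Hspe1 (chr1:55088132-55091307, plus strand) encode HSP60 and HSP10, which form the folding chamber of the mitochondrial matrix. Hspd1 measured 74.1, 86.0 and 76.0 CPM in the sham libraries and 272, 266 and 276 CPM in the MCAO libraries in microglia, a 3.45-fold difference (1.79 ± 0.06, adjusted p = 1.76e-15). Hspe1 measured 225, 219.6 and 216 CPM in the sham libraries and 388, 419 and 414 CPM in the MCAO libraries (0.89 ± 0.05, adjusted p = 5.50e-12). In endothelial cells the changes were 0.85 ± 0.05 for Hspd1 and 0.80 ± 0.05 for Hspe1. In astrocytes Hspd1 changed by 0.68 ± 0.12, adjusted p = 2.93e-05 and Hspe1 was not called (295, 263 and 287 CPM in sham, 305, 338 and 326 CPM in MCAO, 0.20 ± 0.08, adjusted p = 0.0734), although its libraries did not overlap. The astrocyte change of Hspd1 was 1.17 with doublets kept and 1.16 at the coarser clustering.

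Hspa9, the matrix HSP70 mortalin that pulls imported proteins through the inner membrane, measured 60.6, 67.5 and 62.9 CPM in the sham libraries and 157, 149.6 and 166 CPM in the MCAO libraries in microglia (1.31 ± 0.06, adjusted p = 5.22e-13). It rose by 0.65 ± 0.05 in endothelial cells and stood at 0.29 ± 0.11 in astrocytes (adjusted p = 0.0624). Dnajc19 and Dnajc15, J proteins of the import motor, rose in microglia by 0.68 ± 0.05 and 0.70 ± 0.08, and Dnaja3, a matrix DnaJ, by 0.45 ± 0.11. In endothelial cells Dnajc19 had a change of -0.03 ± 0.05 and was not called (adjusted p = 0.619).

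Among small heat shock proteins Hspb1 (HSP27, chr5:135887919-135889563, plus strand) had its highest sham level in endothelial cells. It was called lower there, with 1557, 1615 and 1521 CPM in the sham libraries and 1378, 1428 and 1419 CPM in the MCAO libraries (-0.15 ± 0.04, adjusted p = 0.00268). In astrocytes it was called higher, with 91.2, 133 and 104 CPM in the sham libraries and 164, 135 and 191 CPM in the MCAO libraries (0.57 ± 0.13, adjusted p = 0.00197), although the lowest MCAO library lay only just above the highest sham library. That value depended on which cells were counted as astrocytes, since it was 1.44 at the coarser clustering, 1.41 with members left out of the clustering and 1.57 with doublets kept, and with at most 5% mitochondrial UMIs it was 0.35 and not called (adjusted p = 0.0722). In microglia it was called higher (152 ± 11.9 CPM in sham and 184 ± 6.10 CPM in MCAO, 0.28 ± 0.06, adjusted p = 3.43e-04), at 8.90% to 10.6% of the endothelial level in sham and 12.9% to 13.3% in MCAO, and without TMM scaling that change was 0.13 and not called.

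Hspb6, a small heat shock protein known from muscle, rose in astrocytes, where it measured 21.3, 8.84 and 16.3 CPM in the sham libraries and 40.9, 26.5 and 32.1 CPM in the MCAO libraries (1.12 ± 0.25, adjusted p = 7.51e-04). Hspb3, a small heat shock protein described in muscle (chr13:113662896-113663676, minus strand), was by contrast a gene of sham microglia in these data. It measured 35.05, 31.52 and 32.04 CPM in the sham libraries and 12.02, 9.35 and 12.86 CPM in the MCAO libraries there (-1.53 ± 0.12, adjusted p = 1.55e-09), and the next highest class, neutrophils, had 2.29 CPM in sham. In endothelial cells it was also called lower, from 1.13 to 0.504 CPM (-1.19 ± 0.43, adjusted p = 0.0293), at 4.42% of the microglial level in MCAO. The summed microglia markers stood in endothelial cells at 2.24% to 2.93% of their microglial level in sham and 4.77% to 6.03% in MCAO. The part of microglial RNA in the endothelial Hspb3 value was not tested. Hspb8, which works with Bag3 in selective autophagy, rose in endothelial cells by 0.18 ± 0.05.

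Several DnaJ genes fell in microglia. Dnajb12, an ER membrane DnaJ for membrane protein quality control, measured 31.2, 26.8 and 25.5 CPM in the sham libraries and 12.8, 15.5 and 19.2 CPM in the MCAO libraries in microglia (-0.82 ± 0.13, adjusted p = 3.77e-05) and changed by -0.39 ± 0.11 in endothelial cells. The endothelial call was lost without MCAO library 2 (adjusted p = 0.0616) and with DESeq2 (adjusted p = 0.051). Dnajb5 (-0.61 ± 0.15, adjusted p = 0.00124), Dnajc24, which serves diphthamide synthesis (-0.47 ± 0.08, adjusted p = 5.46e-05), and Dnajc7, which carries clients between HSP70 and HSP90 (-0.45 ± 0.06, adjusted p = 1.03e-06), were also lower in microglia. Dnajc7 measured 172, 174 and 164 CPM in the sham libraries and 119.8, 119 and 134 CPM in the MCAO libraries, while it was called higher in endothelial cells (102 ± 3.24 CPM in sham and 113 ± 1.95 CPM in MCAO, 0.15 ± 0.05, adjusted p = 0.0118). Dnajc24 was lower in astrocytes too, with 60.4, 53.0 and 63.3 CPM in the sham libraries and 41.4, 47.7 and 42.3 CPM in the MCAO libraries (-0.43 ± 0.16, adjusted p = 0.0475), the only member called lower there, but that call was lost without any 1 of 5 libraries (all but MCAO 2, adjusted p from 0.056 to 0.219), with DESeq2, with the replicate block, without the count filter and with at most 5% mitochondrial UMIs.

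In endothelial cells 9 members were called lower, and the lowest changes were those of Hspb3 and Dnajc28 (-0.78 ± 0.29, adjusted p = 0.036), both at under 3 CPM. Dnajc4 went from 31.3 to 23.6 CPM (-0.41 ± 0.08, adjusted p = 4.22e-04). Dnajc12, a DnaJ that serves the aromatic amino acid hydroxylases, changed by -0.30 ± 0.10, adjusted p = 0.019, a call lost without MCAO library 1, with DESeq2 and with doublets kept, and Dnajc30, a mitochondrial DnaJ, by -0.20 ± 0.06, adjusted p = 0.0111, a call lost without sham library 2 and with DESeq2. Hspa12b, an endothelial HSP70 relative linked to vessel growth, fell in the class that carries it, from 225, 224 and 226 CPM to 188, 197 and 208 CPM (-0.19 ± 0.04, adjusted p = 0.0015). It was also called lower in microglia (-0.56 ± 0.16, adjusted p = 0.00591), where it stood at 5.99% to 7.35% of the endothelial level in sham and 3.69% to 6.51% in MCAO, beside 4.58% to 6.02% and 3.89% to 5.13% for the summed endothelial markers. The part of endothelial RNA in that microglial value was not tested.

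Whether changes differed between classes was tested as an interaction, in 1 fit over both classes with the library as a term. The change of 40 of 64 members differed between endothelial cells and microglia, 10 higher and 30 lower in endothelial cells, where 18.7% and 22.4% of all genes were called. Between astrocytes and microglia 8 were higher and 14 lower of 62 (13.4% and 11.9% of all genes), and between endothelial cells and astrocytes 3 higher and 4 lower of 62 (4.64% and 4.71%). Without TMM scaling the first pair had 17 higher and 24 lower and the last 4 higher and 3 lower. Without microglial cluster 10 the first pair had 3 higher and 27 lower and the second 4 higher and 13 lower.

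Microglia exceeded endothelial cells most for Dnajc9, a histone chaperone (-1.07 ± 0.12, adjusted p = 2.34e-09), Hspa2 (-0.99 ± 0.19, adjusted p = 4.84e-05), Hspd1 (-0.99 ± 0.07, adjusted p = 1.74e-14), Hspbp1 (-0.82 ± 0.12, adjusted p = 2.07e-07) and Dnajc19 (-0.76 ± 0.07, adjusted p = 1.33e-12). Hspd1 and Dnajc19 act in mitochondria. Microglia exceeded astrocytes for Hspd1 (-1.08 ± 0.14, adjusted p = 7.17e-10) and Hspa9 (-0.99 ± 0.13, adjusted p = 6.94e-10), and also for Dnajc9 (-1.02 ± 0.21, adjusted p = 9.87e-05) and Hspa2 (-0.98 ± 0.16, adjusted p = 7.87e-07). The endothelial change was higher than the microglial one for Dnajb5 (0.71 ± 0.17, adjusted p = 6.58e-04) and Dnajc7 (0.55 ± 0.07, adjusted p = 5.13e-09), which fell in microglia. For Hspa1b the difference was 0.46 ± 0.08, adjusted p = 6.41e-06, but it was -0.0049 (adjusted p = 0.974) when microglial cluster 10 was left out. The astrocyte change exceeded the microglial one for Hspb6 (1.20 ± 0.39, adjusted p = 0.015), Dnajb5 (1.05 ± 0.33, adjusted p = 0.0116), Dnajc7 (0.65 ± 0.13, adjusted p = 3.52e-05) and Dnajb1 (0.59 ± 0.17, adjusted p = 0.00442), and the last was 0.12 without cluster 10 (adjusted p = 0.69). Hspb6 lost that call without sham library 2 (0.72, adjusted p = 0.26) or MCAO library 1 (adjusted p = 0.053), and Dnajb5 without 3 of the libraries (sham 2, sham 3 or MCAO 3, adjusted p from 0.0662 to 0.184) and without cluster 10 (0.78, adjusted p = 0.0895).

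**Figure D3:**
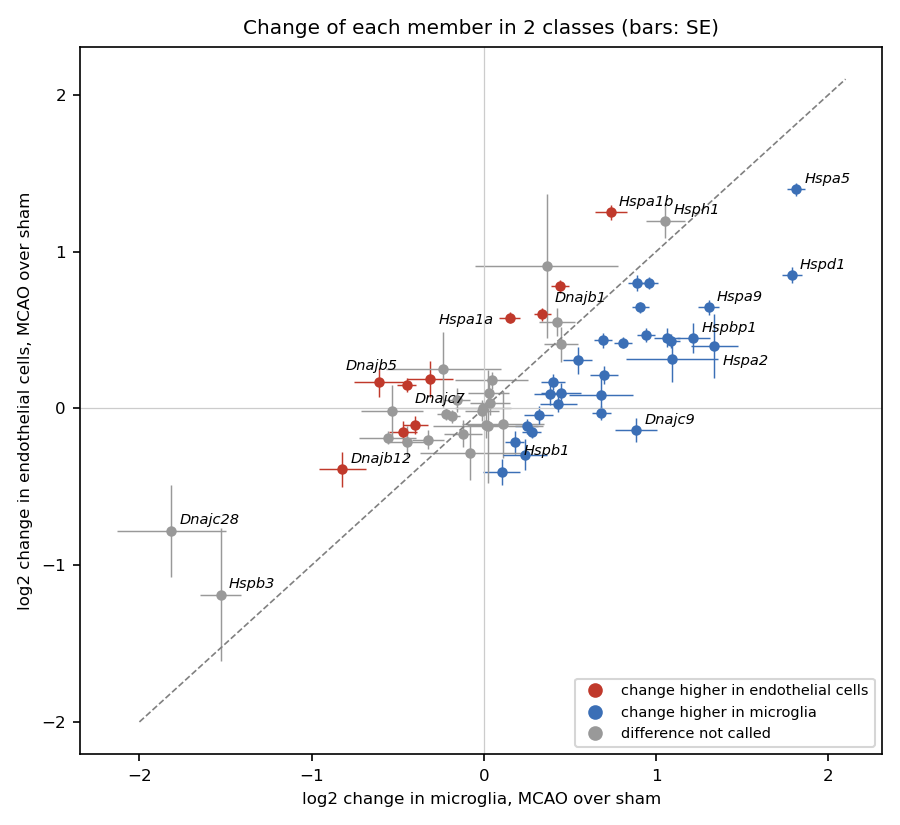
Log2 change of MCAO over sham of each member in microglia (x axis) and in endothelial cells (y axis), with bars for the standard error and a dashed line of equal change. Colors show the interaction call. Hspd1, Hspa9 and Dnajc9 lie below the line, with a larger change in microglia, and Hspa1b, Hspa1a and Dnajc7 lie above it.

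Between endothelial cells and astrocytes, Hspb6 (-1.40 ± 0.31, adjusted p = 3.77e-04) and Hspb1 (-0.74 ± 0.12, adjusted p = 6.29e-07) had the higher change in astrocytes, as did Dnaja1 (-0.48 ± 0.10, adjusted p = 5.78e-05). Hspb1 moved in opposite directions in the 2 classes, and its difference was -1.70 with doublets kept. Hspe1 (0.59 ± 0.08, adjusted p = 3.88e-09) and Hspa5 (0.44 ± 0.08, adjusted p = 1.21e-05) had the higher change in endothelial cells. The Hspe1 difference was 0.23 with doublets kept (adjusted p = 0.0565), and that of Hspa5 was 0.10 at the coarser clustering (adjusted p = 0.574).

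The levels of cytosolic members differed between the clusters that hold microglia. These levels describe the clusters, which were formed from the same cells, and carry no test, and their CPM are scaled by totals alone. Hspa1a stood at 644 ± 64.8 CPM in sham cells of cluster 3, 899 ± 12.1 CPM in MCAO cells of cluster 4 and 250.1 ± 19.4 CPM in MCAO cells of cluster 10. Dnajb1 followed the same order, with 380.4 ± 21.1 CPM, 614 ± 18.7 CPM and 180.1 ± 11.4 CPM. Hspa5 was high in both MCAO clusters, with 945 ± 22.9 CPM, 3291 ± 187 CPM and 2911 ± 129.6 CPM, and so was Hspd1, with 79.3 ± 6.77 CPM, 278 ± 2.34 CPM and 235 ± 7.21 CPM. Cluster 10 had the lowest microglial marker score of the 3 (0.378, against 0.686 and 0.997), and its leading genes were Mmp12, Lpl and Spp1.

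Microglia were fitted again without cluster 10, an alternative added after the clusters were seen. There 33 members were called higher and 11 lower, and the share of all genes called was not counted for that fit. Members were not kept out of the clustering, and cluster 10 held 37.4% of MCAO and 0.219% of sham microglia. Since it was low in Hspa1a and Dnajb1, leaving it out had to raise their changes. The adjusted p-values of these genes in that fit are thus no separate evidence. Hspa1a changed by 0.63 ± 0.06, adjusted p = 4.78e-09 in place of 0.15, Hspa1b by 1.21 ± 0.09, adjusted p = 5.76e-10 in place of 0.74 and Dnajb1 by 0.80 ± 0.05, adjusted p = 3.69e-12 in place of 0.34. The values of Hspb1 (0.54 ± 0.06, adjusted p = 4.28e-08) and Dnajb9 (0.27 ± 0.06, adjusted p = 3.26e-04) were also over 1.5 times larger, and Dnajb5 was no longer called (-0.34 ± 0.16, adjusted p = 0.0666).

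**Figure D4:**
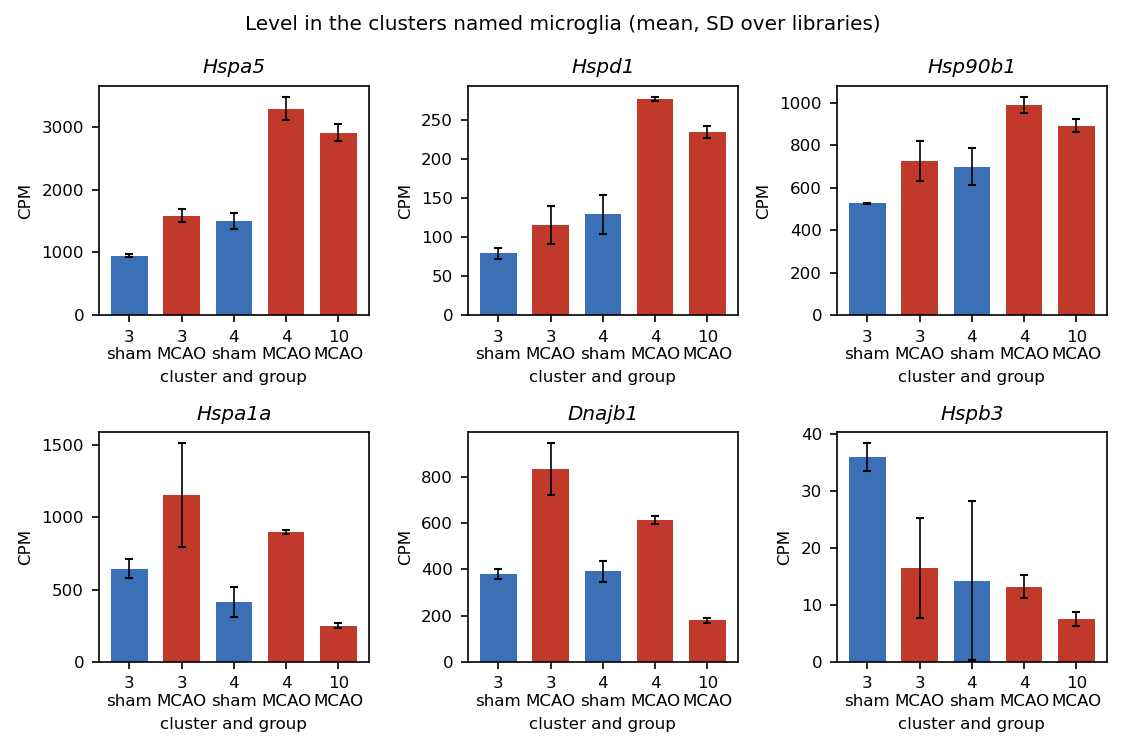
Mean level in CPM (bars, with SD over 3 libraries) of 6 members in the clusters named microglia, by cluster and group (blue for sham, red for MCAO), where every library had at least 20 cells. MCAO cells of cluster 10 have less Hspa1a and Dnajb1 than MCAO cells of cluster 4, while both have more Hspa5 and Hspd1 than sham cells of cluster 3.

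Astrocyte values changed with the clustering, and a small unnamed cluster had high levels of several members. Cluster 20 (112 sham and 296 MCAO cells) stayed unnamed, as under 3 markers of its best-scoring class were detected in it. That class was neurons (score 0.852, 1 marker detected), and neuroblasts scored next (0.754). The leading genes of cluster 20 included Npy, Nnat, Fabp7, Ptx3, Gfap, Meg3 and Sox11. Gfap encodes a filament protein of reactive astrocytes. Which cell type cluster 20 holds was not tested, nor whether its sham and MCAO cells are of the same type. At the coarser clustering its first leading genes, 6330403K07Rik, Npy and Nnat, were among those of a cluster named ependymal cells. The levels in cluster 20 are descriptions with no test, scaled by totals alone. Hspb1 stood at 1062 ± 169 CPM in its MCAO cells and 163 ± 22.4 CPM in its sham cells, against 154 ± 25.6 CPM and 112 ± 21.9 CPM in cluster 9, which held all cells named astrocytes. Hspa1a stood at 698 ± 326 CPM in MCAO and 124 ± 21.9 CPM in sham cells of cluster 20, against 153 ± 44.2 CPM and 112 ± 24.4 CPM in cluster 9. Hspd1 stood at 431 ± 47.9 CPM and 132 ± 43.7 CPM, against 109.6 ± 6.47 CPM and 74.6 ± 7.89 CPM. Of these 4 sets of cells, the MCAO cells of the unnamed cluster had the highest level of each of the 3 genes, and Gfap was there at 1881 ± 168 CPM against 887 ± 61.3 CPM in MCAO cells of cluster 9.

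When the members and the pathway list were left out of the clustering, the astrocyte class held 870 sham and 1671 MCAO cells in place of 852 and 1469, and the unnamed cluster with the same first leading genes held 187 cells in place of 408. That cluster had 29 to 33 cells per sham library and 27 to 34 per MCAO library, where cluster 20 had 33 to 41 and 89 to 114. In these astrocytes 20 members were called higher and 2 lower, with no count of all genes called. Members that missed the threshold before were called here, namely Hspa1a (1.10 ± 0.13, adjusted p = 1.46e-06), Hsph1 (1.12 ± 0.20, adjusted p = 2.27e-05), Hspe1 (0.56 ± 0.08, adjusted p = 2.73e-07) and Hspa9 (0.54 ± 0.11, adjusted p = 2.27e-04). The same 4 members were called with doublets kept and at the coarser clustering, Hspa1a and Hsph1 also without MCAO library 3, and Hspa1a also without the count filter (0.57 ± 0.16, adjusted p = 0.0149) and with the replicate block (0.53 ± 0.12, adjusted p = 1.12e-04). Which cells changed place was not traced, and their part in these values was not tested. Against microglia the difference of Hspd1 was -0.58 in place of -1.08.

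In smooth muscle cells 14 members were called higher and 2 lower of 61 (11.3% and 9.66% of all genes). Hsph1 had its largest change of all classes there, from 20.8, 17.5 and 28.8 CPM to 75.2, 76.1 and 72.4 CPM (1.71 ± 0.17, adjusted p = 3.20e-10). Dnajb1 (1.36 ± 0.10, adjusted p = 6.54e-13) and Dnajc12 (1.49 ± 0.38, adjusted p = 0.00306) also rose. Of 6 small heat shock proteins tested there, 2 were called lower and 4 were not called. Hspb2 measured 355, 397 and 403 CPM in the sham libraries and 274, 267 and 281 CPM in the MCAO libraries (-0.49 ± 0.07, adjusted p = 1.66e-06) and Hspb7 44.2, 38.3 and 49.9 CPM in the sham libraries and 26.7, 27.7 and 24.6 CPM in the MCAO libraries (-0.75 ± 0.17, adjusted p = 0.00135, and -1.20 with at most 5% mitochondrial UMIs). In pericytes 9 were called higher and 3 lower of 42 (8.77% and 6.48%). There Hspb2 (141 ± 38.7 CPM in sham and 71.1 ± 9.85 CPM in MCAO, -0.97 ± 0.25, adjusted p = 0.00547) and Hspa2, which has its highest level in pericytes (456 ± 75.8 CPM in sham and 287 ± 29.3 CPM in MCAO, -0.66 ± 0.15, adjusted p = 8.09e-04), fell beside Hspa1a, and the Hspb2 call was lost without sham library 1 (adjusted p = 0.119). Hspa5 and Dnajb1 (1.19 ± 0.20, adjusted p = 2.39e-05) rose beside Hspa1b.

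In fibroblasts 3 of 37 were called higher (of all genes, 2.01% were higher and 1.54% lower). Hspa1b measured 24.4, 14.9 and 38.2 CPM in the sham libraries and 141, 72.5 and 128 CPM in the MCAO libraries, the largest change of the gene in any class (2.08 ± 0.37, adjusted p = 0.00184), from 20 UMIs in all sham fibroblasts. Hspd1 and Hspa5 were the others, and Hspd1 lost its call without sham library 3 or MCAO library 3, with DESeq2 and at 5% mitochondrial UMIs, and Hspa5 without sham library 1 or 2. In oligodendrocytes 10 were called higher and 4 lower of 54 (11.4% and 10.3%). Dnajc6, auxilin, which strips clathrin coats, fell from 36.6, 19.2 and 33.5 CPM to 11.0, 4.93 and 14.7 CPM (-1.55 ± 0.31, adjusted p = 1.42e-04), and Dnajc24 (116 ± 5.90 CPM in sham and 65.0 ± 3.95 CPM in MCAO, -0.83 ± 0.13, adjusted p = 2.22e-06) fell in the class with its highest sham level. Dnajb2, a DnaJ known from neurons that sorts clients to the proteasome, fell too (257 ± 12.5 CPM in sham and 173 ± 21.7 CPM in MCAO, -0.58 ± 0.10, adjusted p = 6.41e-06). Hspa1b (1.09 ± 0.28, adjusted p = 0.00316), Hspa1a (0.79 ± 0.12, adjusted p = 2.68e-06) and Hsph1 (0.69 ± 0.18, adjusted p = 0.00293) rose, Hspa1b at 9.95% and Hspa1a at 6.87% of the highest MCAO level of any class, and Hspa1b and Hsph1 lost their calls without sham library 2, and Hsph1 also at 5% mitochondrial UMIs.

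In the choroid plexus epithelium 8 were called higher and 3 lower of 58 (7.23% and 6.66%). Hspa1b rose (1.38 ± 0.23, adjusted p = 5.09e-05) at 7.34% of the endothelial MCAO level, with Hspa5 (0.79 ± 0.06, adjusted p = 2.71e-12) and Dnajb1 (0.70 ± 0.11, adjusted p = 1.08e-05). Hspe1 fell there, from 375, 361 and 426 CPM to 304, 308 and 315 CPM (-0.33 ± 0.06, adjusted p = 2.68e-04), against its rise in 6 other classes, and Dnaja2 (-0.33 ± 0.10, adjusted p = 0.0188) lost its call without sham library 1 or MCAO library 1, with DESeq2 and at 5% mitochondrial UMIs.

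Among immune classes, border macrophages had 17 higher and 2 lower of 49 (15.9% and 13.3%), monocyte-derived cells 8 and 2 of 51 (14.7% and 13.8%), and dendritic cells 7 and 2 of 43 (8.99% and 10.2%). In neutrophils 5 of 18 were called higher (of all genes, 15.4% were higher and 12.5% lower) and in T or NK lymphocytes 1 of 28 (3.43% higher and 3.67% lower). The share of members called higher was near that of all genes in monocyte-derived cells and in T or NK lymphocytes. All sham monocyte-derived cells lay in cluster 19, while 1126 of 1411 MCAO ones lay in cluster 13. Dnajc9, a histone chaperone of dividing cells, fell in monocyte-derived cells (42.4, 49.9 and 73.2 CPM to 18.4, 22.7 and 17.2 CPM, -1.50 ± 0.27, adjusted p = 2.27e-04), in dendritic cells (-0.93 ± 0.28, adjusted p = 0.0218) and in border macrophages (-0.79 ± 0.27, adjusted p = 0.0223), against its rise in microglia. Dnajb14, an ER membrane DnaJ, fell in border macrophages (-0.61 ± 0.17, adjusted p = 0.0059), a call lost with DESeq2 (adjusted p = 0.0648). The Dnajc9 call in dendritic cells was lost without sham library 2 or 3, without TMM and without the count filter, that in border macrophages without sham library 1, sham library 2 or MCAO library 1, and both with DESeq2 (adjusted p = 0.124 and 0.14).

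Hspa5 rose in each of these classes, by 1.51 ± 0.17 in neutrophils (216, 287 and 281 CPM to 730.02, 856 and 643 CPM), 1.14 ± 0.12 in monocyte-derived cells, 0.98 ± 0.10 in dendritic cells, 0.92 ± 0.07 in border macrophages and 0.76 ± 0.14 in T or NK lymphocytes, where it was the only member called. Hspd1 and Hsp90b1 rose in border macrophages (0.96 ± 0.14 and 0.89 ± 0.08). Hspa1b was the largest rise in dendritic cells (1.33 ± 0.17, adjusted p = 3.22e-06) and Hspb1 fell there (-0.66 ± 0.19, adjusted p = 0.0144) at 4.67% of the endothelial MCAO level. That call was lost without sham library 2 or 3, with DESeq2, without TMM and with doublets kept, where the change was -0.25 (adjusted p = 0.331). Hspa9 rose in monocyte-derived cells (0.93 ± 0.19, adjusted p = 6.37e-04), but was -0.38 at the coarser clustering (adjusted p = 0.493), and Dnajc10 fell (-0.73 ± 0.25, adjusted p = 0.036), a call lost without sham library 1, 2 or 3 or MCAO library 2 (adjusted p from 0.0528 to 0.186), with DESeq2, without the filter, with the replicate block, at 5% mitochondrial UMIs and at the coarser clustering. Hspa2 rose in border macrophages (1.58 ± 0.34, adjusted p = 3.78e-04) and monocyte-derived cells (1.64 ± 0.49, adjusted p = 0.0144), at 8.66% and 7.09% of the pericyte MCAO level, and the monocyte-derived call was lost without sham library 1 or 2. In neutrophils Hsp90aa1 (1.06 ± 0.21, adjusted p = 2.66e-04) and Hspe1 (1.26 ± 0.45, adjusted p = 0.0382) rose. Hsp90aa1 was 0.70 with doublets kept. The libraries of Hspe1 overlapped, and its call was lost without any 1 of 4 of them (sham 1, sham 2, MCAO 1 or MCAO 2, adjusted p from 0.0658 to 0.209), with DESeq2, with the replicate block and at 5% mitochondrial UMIs.

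Among the tested classes, sham levels of several members were far higher in 1 class than in the others. A level is a class mean in CPM and is compared only between classes of the same gene. Ependymal cells (28 to 49 per sham library) and erythrocytes were not tested and are left out of these comparisons, that of Dnajb13 included. Hspb3 in microglia (32.9 CPM) stood 14.4 times above the next class. Hspa12b was highest in endothelial cells (225 CPM, 5.74 times the fibroblast level), Hspb7 in smooth muscle cells (44.1 CPM, 4.82 times pericytes), Dnajb2 in oligodendrocytes (257 CPM, 3.45 times pericytes), Hspa12a in pericytes (36.1 CPM, 3.13 times smooth muscle cells) and Dnajb13, a cilium gene, in choroid plexus epithelium (11.8 CPM, 3.08 times dendritic cells). Dnajc5b, a paralog of the synaptic vesicle protein CSP, reached 45.8 CPM in fibroblasts and at most 1.26 CPM in any other class. Those levels rest on few counts, as Dnajc5b had 55 UMIs over all tested classes and both groups and passed the count filter in no class. Hspa12a had 237 UMIs over the same cells and passed the filter in smooth muscle cells alone, not in pericytes. Hsp90aa1 was highest in oligodendrocytes (1509 CPM against 711 CPM in T or NK lymphocytes). Hspa1a was highest in pericytes (2548 CPM) and lowest in choroid plexus epithelium (76.5 CPM).

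**Figure D5:**
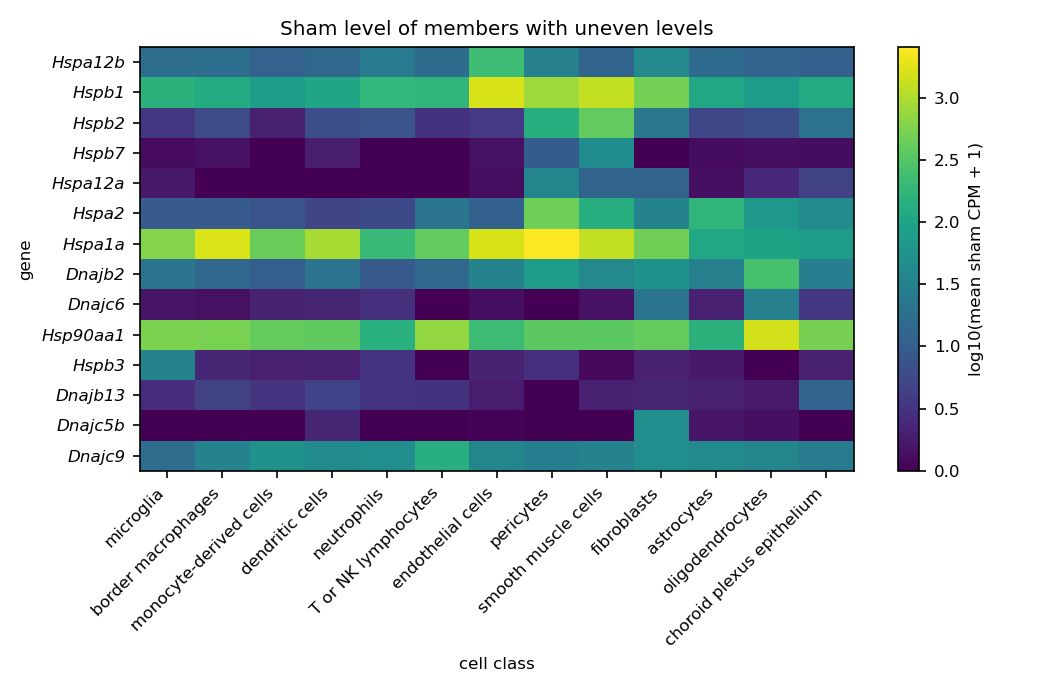
Mean sham level of 14 members, as log10 of CPM + 1 (color), by cell class (n = 3 libraries). Hspb3 is high in microglia, Hspa12b in endothelial cells, Hspb7 in smooth muscle cells and Dnajb2 in oligodendrocytes. Dnajc5b is high in fibroblasts, from few UMIs, and passed the count filter in no class.

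The other genes of the pathway were taken from a list of 65 partners (heat shock factors, HSP70 and HSP90 cochaperones, the cytosolic chaperonin TRiC, ER and mitochondrial partners and further heat shock targets). In microglia 46 of 61 tested were called higher and 3 lower, in endothelial cells 35 and 6 of 62, and in astrocytes 24 of 61 higher, against the shares of all genes given above. In astrocytes 0 were lower by edgeR's adjusted p and 0 by DESeq2, and 0 by edgeR's unadjusted p. The 7 measured subunits of TRiC, which folds actin and tubulin, were higher in all 3 classes, with Cct8 at 112, 108 and 113 CPM in the sham libraries and 279.8, 273 and 288 CPM in the MCAO libraries in microglia (1.34 ± 0.05, adjusted p = 1.54e-14). Of 12 ER partners, 11, 11 and 6 were higher. Creld2 (1.58 ± 0.06, adjusted p = 2.21e-14) and Manf (1.35 ± 0.05, adjusted p = 5.30e-15), small secreted ER stress proteins, rose in microglia. Fkbp5, an HSP90 cochaperone induced by glucocorticoids, rose from 6.46 to 38.2 CPM in endothelial cells (2.55 ± 0.15, adjusted p = 1.04e-07) and from 6.61 to 37.4 CPM in astrocytes (2.45 ± 0.32, adjusted p = 3.74e-07). Sdf2l1, a BiP partner, rose in both (1.51 ± 0.11 and 1.13 ± 0.20), Serpinh1, the collagen chaperone HSP47, in endothelial cells (1.04 ± 0.04) and Bag3 in astrocytes (1.19 ± 0.26).

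Hsf1 encodes the main heat shock factor and Hsf2 a related one. Hsf1 measured 23.4, 22.6 and 25.3 CPM in the sham libraries and 22.9, 23.6 and 22.1 CPM in the MCAO libraries in microglia (-0.06 ± 0.10, adjusted p = 0.638) and was not called in endothelial cells (0.03 ± 0.08) or astrocytes (-0.01 ± 0.25). Hsf2 was lower in endothelial cells (-0.39 ± 0.13, adjusted p = 0.0204), a call lost without sham library 3, without MCAO library 2 and with DESeq2. Fkbp4 (-0.26 ± 0.04, adjusted p = 7.47e-05) and Bag2 (-0.42 ± 0.11, adjusted p = 0.00352) were also lower there. In microglia Bag4 (-0.42 ± 0.15, adjusted p = 0.022) and Ttc4 (-0.29 ± 0.11, adjusted p = 0.0244) were lower, and each call was lost without at least 3 single libraries and with DESeq2, and that of Ttc4 also without microglial cluster 10.

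Immediate early genes, which rise within minutes of a stimulus, digestion included, were measured beside the members. Of 20, 10 were higher and 5 lower of 19 tested in microglia, 12 and 1 of 18 in endothelial cells, and 12 of 16 were higher in astrocytes. The shares of all genes called higher and lower were 30.0% and 31.9%, 24.0% and 22.3%, and 9.68% and 7.46%. In microglia the 5 lower were 26.3% of those tested, below the share of all genes. Their summed level was 16315 to 16580 CPM in sham and 16353 to 17056 CPM in MCAO microglia, 11456 to 11665 and 13584 to 13736 CPM in endothelial cells, and 1551 to 1884 and 2739 to 2993 CPM in astrocytes. Their part in the changes of the heat shock members was not tested.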

How the data were processed

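Droplet single-cell RNA-seq (Chromium 3′ kit, per the labels' protocols) was made from 3 sham and 3 MCAO libraries. The deposited matrices hold raw UMI counts per gene and barcode, 1 matrix per library. Cell Ranger, STAR and mm10 are named, per the submitters' processing notes, without versions, and how cells were called is not stated there. Reads that fit more than 1 gene may have been dropped, which bears on near-identical copies such as Hspa1a and Hspa1b.

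Barcodes with under 300 genes (15) or over 10% mitochondrial UMIs (1298) were removed, then 4557 doublets, scored against simulated doublets at a set rate of 0.8% per 1000 barcodes. Cells were scaled to 10000 UMIs, 2000 variable genes gave 30 principal components, and a graph of 20 neighbours was split by Leiden at resolution 1.0 (leidenalg 0.10.2, scikit-learn 1.9.0). Clusters were named by marker lists, and 4 clusters (71 to 408 cells) stayed unnamed. Erythrocytes and ependymal cells had under 20 cells in a library and were not tested. Raw UMIs were summed per library and class. They were tested with edgeR 4.0.16 (filterByExpr, TMM, robust quasi-likelihood, group only), with p-values adjusted by Benjamini-Hochberg over all genes of the class. CPM are scaled by TMM unless stated. Differences between classes were interaction terms in a fit with the library as a block.

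The members and lists were chosen with earlier results of these data known. Values are given in the 3 main classes for 16 members always and for the up to 10 highest and 6 lowest changes called at 10 CPM or more. In every other class they are given for the 3 highest and 2 lowest, in each pair of classes for 5 differences each way, for the 3 highest and 3 lowest of the pathway list, and for members whose sham level is at least 3 times that of the next class. Further genes in the text were chosen after their values were seen. An item that this rule names is not reported here, and it stays in the fits and counts.

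On simulated counts from the microglial means, 85.0% of genes changed 2.0-fold and 46.0% of those changed 1.5-fold were recovered among 11637 genes, and 5.76% of calls were false. In astrocytes the recovered shares were 67.0% and 28.0% among 9412 genes, with 4.04% of calls false. The simulation gave every gene the same set dispersion, not estimated from these libraries, so these shares do not measure the power of the data. Alternatives were DESeq2 1.42.0, totals without TMM, no filter, each library left out, a replicate block, doublets kept, at most 5% mitochondrial UMIs, members left out of clustering and Leiden resolution 0.5. Shares of all genes called were counted for the main fits only. Positions are GENCODE vM21 on mm10, and promoter windows are RefSeq on GRCm38.p6.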

Additional observations from a re-analysis of the deposited data

Results flagged for a closer look

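The following differences of the MCAO-over-sham change between 2 cell classes passed an interaction test (edgeR's quasi-likelihood test, Benjamini-Hochberg adjusted over all genes), and they were the largest in each direction. Each is a log2 difference ± standard error, and a positive value means a higher change in the class named first.

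For endothelial cells minus microglia the higher differences were Dnajb5 (0.71 ± 0.17, adjusted p = 6.58e-04), Dnajc7 (0.55 ± 0.07, adjusted p = 5.13e-09), Hspa1b (0.46 ± 0.08, adjusted p = 6.41e-06), Dnajc13, an endosomal DnaJ (0.45 ± 0.16, adjusted p = 0.0244), and Dnajb12 (0.38 ± 0.15, adjusted p = 0.0328). The lower ones were Dnajc9 (-1.07 ± 0.12, adjusted p = 2.34e-09), Hspa2 (-0.99 ± 0.19, adjusted p = 4.84e-05), Hspd1 (-0.99 ± 0.07, adjusted p = 1.74e-14), Hspbp1 (-0.82 ± 0.12, adjusted p = 2.07e-07) and Dnajc19 (-0.76 ± 0.07, adjusted p = 1.33e-12). Dnajb12 lost its call when any 1 of 4 libraries was left out (adjusted p from 0.0532 to 0.242) and Dnajc13 when any 1 of 2 was (adjusted p from 0.112 to 0.124). Both calls were lost without microglial cluster 10 (adjusted p = 0.0972 and 0.139), and that of Dnajb12 also without the count filter (adjusted p = 0.0568) and with the replicate block (adjusted p = 0.133).

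For astrocytes minus microglia the higher differences were Hspb6 (1.20 ± 0.39, adjusted p = 0.015), Dnajb5 (1.05 ± 0.33, adjusted p = 0.0116), Dnajc7 (0.65 ± 0.13, adjusted p = 3.52e-05), Dnajb1 (0.59 ± 0.17, adjusted p = 0.00442) and Dnajc8, a splicing-associated DnaJ (0.37 ± 0.11, adjusted p = 0.00887). The lower ones were Hspa4l (-1.11 ± 0.31, adjusted p = 0.00383), Hspd1 (-1.08 ± 0.14, adjusted p = 7.17e-10), Dnajc9 (-1.02 ± 0.21, adjusted p = 9.87e-05), Hspa9 (-0.99 ± 0.13, adjusted p = 6.94e-10) and Hspa2 (-0.98 ± 0.16, adjusted p = 7.87e-07). Dnajb1 lost its call without MCAO library 1 (0.41, adjusted p = 0.105), Hspa4l without the same library (adjusted p = 0.0598) and without microglial cluster 10 (-0.77, adjusted p = 0.0919), and Dnajc8 without any 1 of 2 (adjusted p from 0.0766 to 0.184).

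For endothelial cells minus astrocytes the higher differences were Hspe1 (0.59 ± 0.08, adjusted p = 3.88e-09), Hspa5 (0.44 ± 0.08, adjusted p = 1.21e-05) and Hspa9 (0.34 ± 0.12, adjusted p = 0.0474). The lower ones were Hspb6 (-1.40 ± 0.31, adjusted p = 3.77e-04), Hspb1 (-0.74 ± 0.12, adjusted p = 6.29e-07), Dnaja1 (-0.48 ± 0.10, adjusted p = 5.78e-05) and Hspa8 (-0.20 ± 0.07, adjusted p = 0.0378). Hspa9 (adjusted p from 0.0601 to 0.252) and Hspa8 (adjusted p from 0.0627 to 0.142) lost their calls when any 1 of the 6 libraries was left out, and with the replicate block (adjusted p = 0.0649 and 0.115). Hspa9 also lost it with doublets kept, with members left out of clustering, at resolution 0.5, at 5% mitochondrial UMIs and without the filter, and Hspa8 without TMM.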

How the results depend on the processing

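Of 149 single values, 144 were called, and 39 of these lost the call under at least 1 alternative, 32 of them when 1 library was left out. Calls lost were 16 with DESeq2, 11 with at most 5% mitochondrial UMIs, 7 with the replicate block (Dnajc24 in astrocytes, Dnajb9 in endothelial cells, Dnajc10 in monocyte-derived cells, Hspe1 in neutrophils, and the class differences of Dnajb12, Hspa9 and Hspa8), 6 without TMM, 5 without the filter, 7 without microglial cluster 10, 4 with doublets kept, 3 at resolution 0.5 and 2 with members left out of clustering. The sign changed in 2 values, Hspa9 in monocyte-derived cells (-0.38, resolution 0.5) and Hspa1b in endothelial cells minus microglia (-0.0049, without cluster 10). The 5 values not called, all in astrocytes, were called under at least 1 alternative, Hspa1a, Hsph1, Hspe1 and Hspa9 as described above and Dnajb9 without TMM, and the block added the call of Hspa1a there. The causes were not tested.

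The member called lower in astrocytes (1, and 3 at an unadjusted p by edgeR) became 0 with DESeq2, without the filter, with the replicate block and at 5% mitochondrial UMIs, 4 without TMM, and 2 with doublets kept, with members left out of clustering and at resolution 0.5. With DESeq2 the members called lower were 4 in endothelial cells and 9 in the other classes (main 9 and 18). The pathway list called lower in microglia was 1 with DESeq2, 6 without TMM and 1 without cluster 10 (main 3).

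Members with a higher change in endothelial cells than in microglia were 17 without TMM and 3 without cluster 10 (main 10). For astrocytes minus microglia the higher ones were 13 with doublets kept, 5 at 5% mitochondrial UMIs and 4 without cluster 10 (main 8). For endothelial cells minus astrocytes the higher ones were 1 with doublets kept, with members left out of clustering and at resolution 0.5 (main 3), and the lower ones 8 at resolution 0.5 (main 4).

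With each library left out in turn, members called higher and lower ranged from 32 to 35 and 12 to 15 in microglia, 21 to 25 and 6 to 9 in endothelial cells, 14 to 18 and 0 to 1 in astrocytes and 66 to 82 and 12 to 20 in the other classes. The pathway list ranged from 44 to 46 and 0 to 3 in microglia, 29 to 35 and 5 to 7 in endothelial cells, and 19 to 24 higher in astrocytes. It was 0 lower there without sham library 1 as with all libraries. Differences between classes ranged from 6 to 9 and 27 to 29 for endothelial cells minus microglia, 3 to 8 (the 3 without MCAO library 1) and 11 to 15 for astrocytes minus microglia, and 2 and 3 to 4 for endothelial cells minus astrocytes.

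Deviations of same-numbered sham and MCAO libraries from their group means had correlations from -0.145 to 0.056 in the 3 main classes. Sham library 2 matched MCAO library 2 best in each class, and sham libraries 1 and 3 matched another number. With 3 libraries per group these values cannot decide whether the numbers pair them, and the labels do not give the processing day. With the replicate block members called higher and lower were 35 and 13 in microglia, 24 and 8 in endothelial cells, 16 and 0 in astrocytes and 79 and 17 in the other classes, and the differences 8 and 28, 7 and 12, and 2 and 3. Depth limits the smaller classes, since sham fibroblasts, pericytes and T or NK lymphocytes held at most 342828, 174159 and 203188 UMIs per library.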

Other observations

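Several members outside the rule for named genes also changed in microglia, and are given here with their values, having been chosen after these were seen. Dnajc2, a ribosome-bound DnaJ that helps nascent chains, went from 42.9 to 62.6 CPM (0.55 ± 0.08, adjusted p = 1.40e-05). Dnajc9 went from 15.3 to 28.1 CPM (0.88 ± 0.12, adjusted p = 2.65e-06) and Dnajc21, a ribosome assembly factor, from 6.86 to 10.8 CPM (0.68 ± 0.19, adjusted p = 0.00378). Dnajc10, an ER disulfide reductase that works with BiP, went from 17.2 to 23.3 CPM (0.43 ± 0.11, adjusted p = 0.00203). Lower were Dnajc5, the synaptic vesicle chaperone CSP (61.8 ± 2.61 CPM in sham and 46.9 ± 1.31 CPM in MCAO, -0.40 ± 0.07, adjusted p = 7.49e-05), Dnajb6, which holds back aggregation (175 ± 1.99 CPM in sham and 154 ± 1.87 CPM in MCAO, -0.19 ± 0.05, adjusted p = 0.00222), and Dnajc18 (27.1 ± 0.738 CPM in sham and 19.9 ± 0.476 CPM in MCAO, -0.44 ± 0.10, adjusted p = 6.60e-04). Hspa1l, the testis relative of Hspa1a that lies beside it on chromosome 17, was called higher at a low level (from 0.328 to 1.95 CPM, 2.51 ± 0.57, adjusted p = 7.72e-04), and reads of the 3 copies may be mixed.

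Border macrophages, the macrophages of brain vessels and membranes, also had members of each compartment called higher. Dnajb11 (0.83 ± 0.12, adjusted p = 9.09e-07) and Dnajc3 (0.48 ± 0.12, adjusted p = 0.00169) serve the ER, Dnaja1 (0.74 ± 0.09, adjusted p = 1.23e-08) and Hspa8 (0.46 ± 0.06, adjusted p = 1.97e-07) the cytosol, and Hspa9 (0.70 ± 0.13, adjusted p = 6.88e-05) and Hspe1 (0.49 ± 0.12, adjusted p = 0.00197) mitochondria. In choroid plexus epithelium the ER members Hsp90b1 (0.36 ± 0.06, adjusted p = 3.27e-05), Dnajc3 (0.50 ± 0.12, adjusted p = 0.00511) and Dnajb11 (0.36 ± 0.10, adjusted p = 0.0161) were called higher, while Hspd1 changed by 0.17 ± 0.08, adjusted p = 0.217 and Hsp90aa1 by 0.05 ± 0.06, adjusted p = 0.67.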
